A study of Mus musculus with 6 samples.

Results

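The genes Rag1, Rag2 and Dntt and the chromosome segments around them were followed in contact maps of cultured mouse B-cell progenitors. They were chosen by name, as the lymphoid-restricted enzymes of V(D)J recombination, and not by any measured value. Earlier results of these data were known when they were chosen. They are 3 of the 20807 protein-coding genes that start in an autosomal bin of the maps. The Rag window holds 24 bins on chromosome 2 and the Dntt window 22 bins on chromosome 19, out of 24067 autosomal bins. After bins with very few or very many contacts were left out, 43 of these 46 bins and 23644 autosomal bins in all were kept.

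The maps were made by in situ Hi-C, in which chromatin is cut and re-ligated inside the nucleus so that the number of read pairs joining a pair of bins measures how often they lie close together. The Erg KO cells (Rag1CreT/+;Erg fl/fl) carry floxed Erg, an ETS-family transcription factor gene, and the Rag1Cre transgene, which deletes floxed alleles in lymphoid progenitors. The CreT control (Rag1CreT/+) carries the transgene alone, and the Erg fl/fl control (Rag1Cre+/+;Erg fl/fl) the floxed alleles alone. Each genotype had 2 libraries, replicate 2 of Erg KO and of Erg fl/fl being from males and the other 4 libraries from females, and all were C56BL/6 by their labels. Lineage-depleted bone marrow was grown for 8 days on OP9 stroma with lymphoid cytokines, and B220+ cells were taken. The study describes the Erg KO cells as arrested before the proB stage of its controls, so loss of Erg and stage cannot be told apart in these comparisons. Contact maps hold no RNA, so the labelled cell type was not checked against markers, and the deleted part of Erg is far smaller than a bin.

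The libraries held between 29014581 and 68085468 read pairs, the fewest in Erg fl/fl replicate 2. Pairs joining different autosomes were 32.3% and 34.6% of the Erg KO libraries, against 24.7% and 26.8% of the CreT and 24.3% and 21.6% of the Erg fl/fl libraries. Erg KO maps also differed from both controls across the genome. Contacts between bins that both lay in active chromatin were mostly fewer and those between bins in inactive chromatin mostly more. Bin pairs and summed contacts of a bin are therefore in places also set below against bins of the same kind. The other scores are set against all bins only.

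V(D)J recombination assembles the variable regions of antigen receptors in developing lymphocytes. RAG1 and RAG2 form the recombinase that cuts DNA at recombination signal sequences. Terminal deoxynucleotidyl transferase, the product of Dntt, then adds untemplated nucleotides to the cut ends before non-homologous end joining closes them. All of them are switched on in early lymphoid progenitors and are characteristic of the proB stage.

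Rag2 (ENSMUSG00000032864.4) lies on the plus strand of chromosome 2 at 101624718 to 101632529, and Rag1 (ENSMUSG00000061311.6) on the minus strand at 101638282 to 101649501 (mm10), so that the genes are transcribed toward each other. Both lie inside 1 bin, 101600053 to 101699943, which also holds the starts of Traf6, a ubiquitin ligase of innate immune signalling, and B230118H07Rik. Every value of this bin therefore belongs to Rag1 and Rag2 alike. Dntt (ENSMUSG00000025014.13) lies on the plus strand of chromosome 19 at 41029275 to 41059525, in the bin 41000053 to 41099989, together with Opalin, a myelin membrane protein gene. The bins are about 100 kb long and run from restriction site to restriction site. In the mm10 reference sequence (RefSeq) the letters GATC stood at 1791 of 1791 inner bin edges of chromosome 2 and at 584 of 584 of chromosome 19. The edges of the bins that hold the genes are shown because they bound what the maps can resolve. Capitals mark the shared cut site, the last 4 bases of 1 bin and the first 4 of the next.
Rag bin, lower edge: gctactacatGATCtctagataaa
Rag bin, upper edge: gtcaactcagGATCaagtcttagc
Dntt bin, lower edge: aatgcaggagGATCacaactctga
Dntt bin, upper edge: ttatcagcttGATCgcccttctcc
These stretches lie on the plus strand at chr2:101600043-101600066, chr2:101699930-101699953, chr19:41000043-41000066 and chr19:41099976-41099999. The Rag bin held 208 such sites, against a median of 245 in the bins of its chromosome, and the Dntt bin 238, against a median of 243.

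In every library the Rag1 and Rag2 bin sat on the slope between an inactive, gene-empty domain and an active one. The compartment score places each bin along the main axis of the chromosome's contact pattern, positive for the active, gene-dense compartment A and negative for compartment B, in units of its SD over the bins. At the bin 0.5 Mb on the lower-coordinate side the score was -1.25 and -1.25 in the Erg KO, -1.26 and -1.27 in the CreT and -1.30 and -1.36 in the Erg fl/fl libraries. None of the window's 12 bins on that side holds the start of a protein-coding gene. At the bin 0.1 Mb on the higher-coordinate side the score was 0.71 and 0.84 in the Erg KO, 0.82 and 0.81 in the CreT and 0.63 and 0.57 in the Erg fl/fl libraries. The gene bin lay between them in all 6 libraries. Averaged over the 6 libraries the score climbed by 1.60 between the second kept bin before and the second kept bin after the Rag genes, a larger step in size than at 95.3% of the kept bins.

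No change of that position passed the test. The compartment score of the Rag1 and Rag2 bin was 0.36 and 0.54 in the Erg KO, 0.47 and 0.51 in the CreT and 0.32 and 0.25 in the Erg fl/fl libraries. The groups overlapped, and the fitted change in Erg KO against both controls was +0.05 (SE 0.06, limma adjusted p = 0.670). The controls stood further apart, CreT above Erg fl/fl by 0.23 (SE 0.08, limma adjusted p = 0.269). It was -0.05 without replicate 2 of Erg KO or of Erg fl/fl, and +0.21 without Erg KO replicate 1, where it passed (limma adjusted p = 0.0484). Sex is a term of the model, so a fit without 1 of the 2 male libraries leaves that term to the other and rests on the 4 female libraries. In compartment score, 0 of the 21 kept bins of the Rag window passed limma's test in either direction (1 had an unadjusted p under 0.05), where 1.17% of all bins fell and 1.31% rose. Such counts moved with the library left out, since over the genome 0 bins passed without either CreT library, while 3964 fell and 4177 rose without Erg fl/fl replicate 1. The median change over the Rag window's bins was +0.03 with all libraries, +0.05 without Erg KO replicate 1 and +0.04 without Erg fl/fl replicate 1. A second readout, the preference of the Rag1 and Rag2 bin for compartment A over B among partners more than 2 Mb away, was 0.49 and 0.61 (log2) in the Erg KO, 0.47 and 0.61 in the CreT and 0.42 and 0.43 in the Erg fl/fl libraries. The difference of 0.07 lay within the spread between libraries (exact permutation test over libraries, two-sided, p = 0.533, where the smallest p that 2 libraries against 4 allow is 0.0667).

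**Figure D1:**
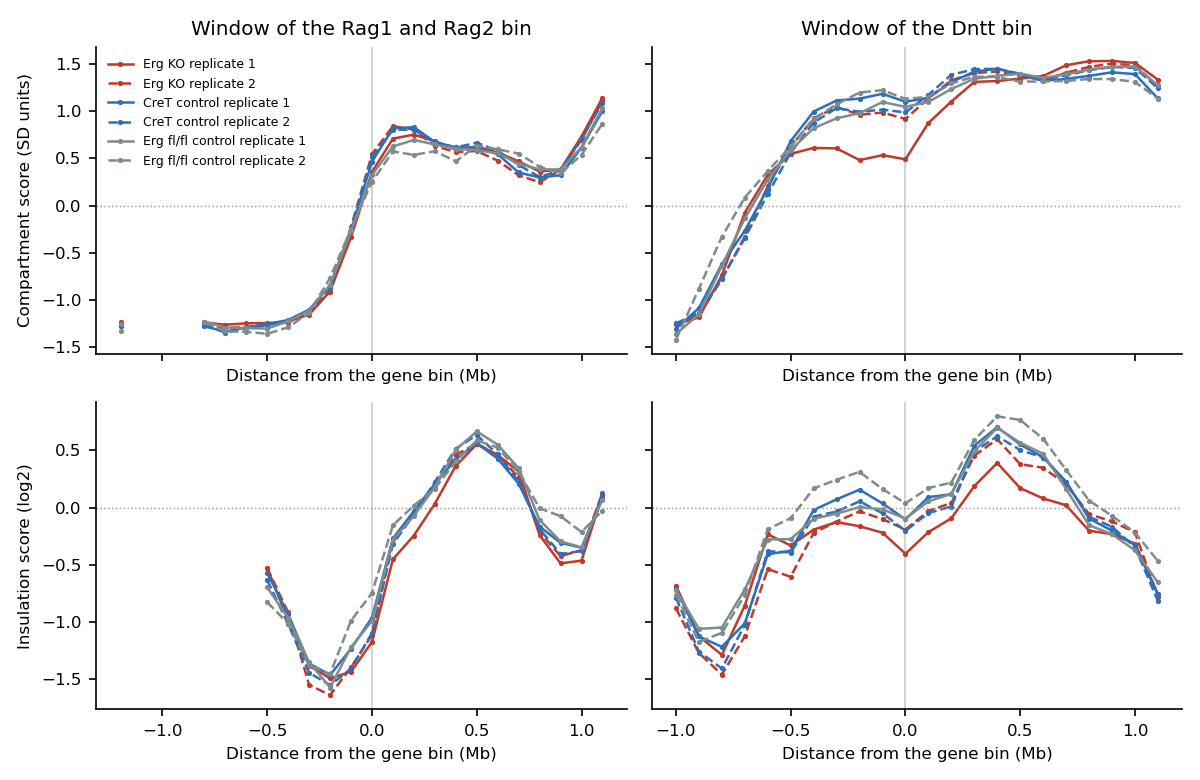
Compartment score (upper row) and insulation score (lower row) of each kept bin against its distance from the gene bin in Mb, with 1 line per library (Erg KO, CreT control and Erg fl/fl control, line style marking the replicate). The compartment score crosses 0 just below the Rag1 and Rag2 bin in all 6 libraries, whereas in the Dntt window the Erg KO lines lie below the controls at the Dntt bin.

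The insulation score of the Rag1 and Rag2 bin was slightly lower in Erg KO, while the boundary next to it did not pass the test. The insulation score is the log2 of the contacts that cross a bin, over the chromosome's mean, so a low value marks a boundary. Its lowest point in the Rag window's neighbourhood lay 0.2 Mb below the Rag genes, a local minimum in 6 of 6 libraries. There it was -1.496 and -1.64 in the Erg KO, -1.47 and -1.56 in the CreT and -1.58 and -1.46 in the Erg fl/fl libraries, which overlapped (change -0.05, SE 0.07, limma adjusted p = 0.624). At the Rag1 and Rag2 bin itself the score was -1.18 and -1.11 in the Erg KO, -0.96 and -1.10 in the CreT and -0.99 and -0.75 in the Erg fl/fl libraries. Only 3.73% of all bins averaged lower. The groups did not overlap, although CreT replicate 2 stood beside the Erg KO libraries. The score fell by 0.23 in Erg KO (SE 0.07, limma adjusted p = 0.0417). Against the Erg fl/fl control alone it fell by 0.28 (adjusted p = 0.0317 in limma), and against the CreT control alone the difference of -0.19 did not pass (limma adjusted p = 0.189). The call was also lost without replicate 2 of Erg KO or of Erg fl/fl (-0.17 each, limma adjusted p = 0.106), without CreT replicate 1 (-0.20, limma adjusted p = 0.149) and without sex in the model (-0.20, limma adjusted p = 0.128). Neighbouring bins share contacts in this score. In the Rag window 2 of 17 bins fell in insulation and 0 rose, where 14.7% of all bins fell and 11.1% rose. The share was thus close to that of all bins. Without CreT replicate 1, or without replicate 2 of Erg KO or of Erg fl/fl, 0 of the 17 passed.

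Contacts of the Rag1 and Rag2 bin with the chromatin around it were summed from 200 kb to 2 Mb. These local contacts were 45.2 and 51.6 normalised CPM in the Erg KO, 53.7 and 51.8 in the CreT and 54.9 and 54.6 in the Erg fl/fl libraries. The higher Erg KO library lay just under the lowest control. They rested on 828 and 901 read pairs in the Erg KO, 1277 and 1236 in the CreT and 1001 and 763 in the Erg fl/fl libraries. The level fell by 0.18 on the log2 scale in Erg KO (SE 0.06, edgeR adjusted p = 0.0171). The change was -0.06 without Erg KO replicate 1 (edgeR adjusted p = 0.567), -0.17 without CreT replicate 1 (edgeR adjusted p = 0.0905) and -0.15 without sex in the model (edgeR adjusted p = 0.118), none of which passed. Over the window 6 of 21 bins fell and 4 rose, where 33.3% of all bins fell and 34.4% rose in this measure. All 4 that rose lay in the gene-empty domain, 0.6 to 1.2 Mb below the Rag genes, with log2 changes between +0.34 and +0.60. Of all bins with a compartment score under -1, 79.0% rose, with a median of +0.37.

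Single bin pairs told the same about this domain. Of 160 tested bin pairs of the Rag window, 4 fell and 9 rose in Erg KO against both controls, where 6.46% of all 431340 tested pairs fell and 6.39% rose. Among pairs within the lower-coordinate domain 0 of 39 fell (edgeR) and 8 rose, and 37 of the 39 fitted changes were positive, with a median of +0.41. Of these, 5 were a bin paired with itself. The contact of the bin 0.8 Mb below the Rag genes with itself was 185 and 184 normalised read pairs in the Erg KO, 123 and 134 in the CreT and 128 and 86.1 in the Erg fl/fl libraries. Both Erg KO libraries stood above all 4 controls, and the log2 change was +0.68 (SE 0.12, edgeR adjusted p = 4.81e-06). The outermost bin, 1.2 Mb below, had 67.0 and 64.9 normalised read pairs with itself in the Erg KO, 33.2 and 39.1 in the CreT and 51.6 and 20.8 in the Erg fl/fl libraries, a log2 change of +0.95 (SE 0.21, edgeR adjusted p = 0.000339). The bins 0.8 and 0.7 Mb below the Rag genes joined each other in 99.3 and 103.4 normalised read pairs in the Erg KO, 58.4 and 66.0 in the CreT and 85.7 and 51.6 in the Erg fl/fl libraries (log2 change +0.67, SE 0.16, edgeR adjusted p = 0.00147), and the bin 0.7 Mb below changed by +0.47 with itself (SE 0.13, edgeR adjusted p = 0.00750). These increases depended on the scaling. Under offsets that equalise bin coverage the 3 pairs named at 0.8 and 0.7 Mb, among themselves and with each other, changed by -0.10, -0.11 and -0.28 and none passed. Without Erg fl/fl replicate 2 the outermost bin changed by +0.61 with itself (edgeR adjusted p = 0.126) and the bins 0.8 and 0.7 Mb below by +0.42 with each other (edgeR adjusted p = 0.197). Under the main scaling the same kind of pair rose elsewhere too. Of all pairs of bins with both scores under -1, 24.0% rose with a median of +0.47, and of such bins paired with themselves 76.3% rose.

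A pair that did not pass may still have fallen. In simulated data with 50 halvings among 431340 pairs the pair test recovered 6 of them. The real data held 55416 calls, where the adjustment is less strict, so that recovery does not give the power of the real test. The Rag1 and Rag2 bin itself had few pairs that passed. With itself it had 267 and 241 normalised read pairs in the Erg KO, 233 and 240 in the CreT and 255 and 256 in the Erg fl/fl libraries, and the groups overlapped (log2 change +0.07, SE 0.09, edgeR adjusted p = 0.671). Of its 17 tested pairs 1 fell and 0 rose, where 6.46% of all pairs fell, so the share was no higher than that of all pairs (4 had an unadjusted p under 0.05). Partners from 0.5 Mb below to 0.2 Mb above had log2 changes between -0.15 and +0.72, and none of them passed. With the bin of Ldlrad3, a low-density lipoprotein receptor family gene 0.5 Mb above, it had 50.2 and 41.4 normalised read pairs in the Erg KO, 69.0 and 62.8 in the CreT and 58.0 and 59.2 in the Erg fl/fl libraries, which did not overlap but did not pass (log2 change -0.40, SE 0.20, edgeR adjusted p = 0.182). The pair that fell joined the Rag genes to the bin of Slc1a2, a glutamate transporter gene 1.0 Mb above. It had 25.2 and 17.4 normalised read pairs in the Erg KO, 38.0 and 30.1 in the CreT and 34.1 and 45.9 in the Erg fl/fl libraries, from raw counts of 24 and 16, 48 and 38, and 33 and 34. Both Erg KO libraries lay under all 4 controls, at a fitted 0.579 of the control level (log2 change -0.79, SE 0.27, edgeR adjusted p = 0.0369). The call held against the Erg fl/fl control alone (edgeR adjusted p = 0.0438) but not against CreT alone (edgeR adjusted p = 0.180), and without Erg fl/fl replicate 2 the change was -0.45 (edgeR adjusted p = 0.519). It was lost in 10 of the 13 alternatives run. The Rag1Cre transgene is in the Erg KO and CreT libraries and not in the Erg fl/fl ones, where it sits is not given in the sources used here, and its part in the counts of the Rag1 and Rag2 bin was not tested. Slc1a2 also lost contact with the bin 0.4 Mb above the Rag genes. That pair had 37.9 and 39.2 normalised read pairs in the Erg KO, 67.4 and 58.9 in the CreT and 63.2 and 76.7 in the Erg fl/fl libraries (log2 change -0.83, SE 0.21, edgeR adjusted p = 0.00239). Without Erg fl/fl replicate 2 it was -0.74 (edgeR adjusted p = 0.0808).

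**Figure D2:**
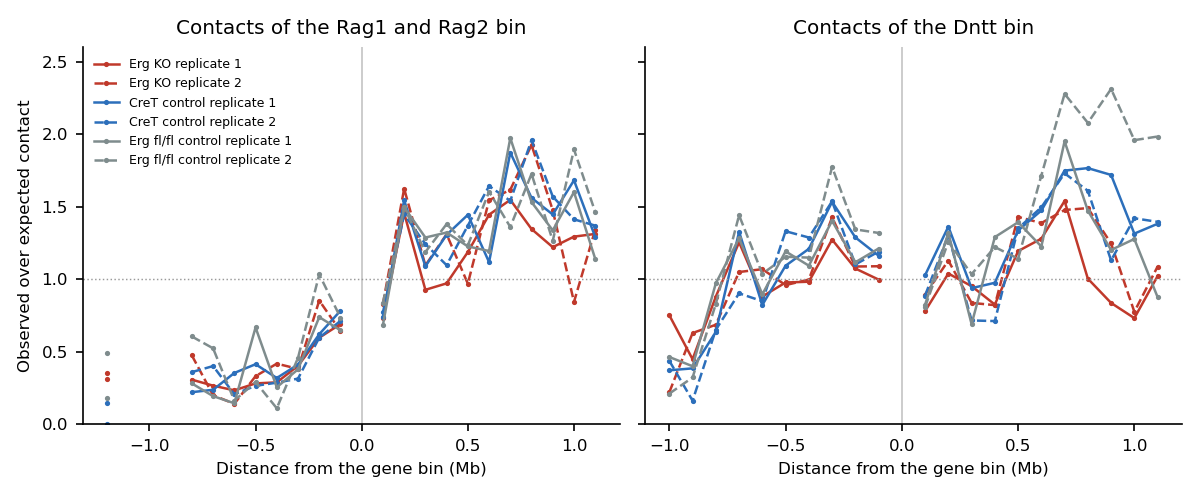
Observed over expected contact of the Rag1 and Rag2 bin (left) and of the Dntt bin (right) with each bin of its window, against distance in Mb, 1 line per library; 1 is the mean contact at that distance on the chromosome. Contacts of the Rag genes fall away below them in all 6 libraries, and the Erg KO lines of Dntt separate from the controls mainly toward the higher-coordinate end.

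Set over the contact expected at each distance, the Rag1 and Rag2 bin met the lower-coordinate side of its window rarely in every library. The log2 of observed over expected was -1.004 and -0.89 in the Erg KO, -0.91 and -1.03 in the CreT and -0.98 and -0.79 in the Erg fl/fl libraries. With the higher-coordinate side it was 0.10 and 0.26 in the Erg KO, 0.26 and 0.27 in the CreT and 0.24 and 0.34 in the Erg fl/fl libraries. The groups overlapped on both sides (exact permutation test, two-sided, p = 0.867 below and p = 0.133 above). Total coverage of the Rag1 and Rag2 bin relative to its neighbourhood differed by 0.02 (log2) and also overlapped (exact permutation test, p = 0.467). The share of its contacts that went to other chromosomes was 22.4% and 23.9% in the Erg KO, 14.6% and 17.4% in the CreT and 15.4% and 13.1% in the Erg fl/fl libraries. These groups did not overlap (exact permutation test, p = 0.0667, the smallest possible), and the share moved with that of the whole libraries given above.

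The Dntt locus differed more between the genotypes. In the Dntt window 71 of 223 tested bin pairs fell and 3 rose in Erg KO against both controls, and the median log2 change was -0.41. The share that fell was 31.8%, against 6.46% of all tested pairs. Against the CreT control alone 32 of the 223 fell (3.54% of all pairs), and against the Erg fl/fl control alone 58 fell (5.43% of all pairs). Between the CreT and the Erg fl/fl controls 0 of the 223 passed in edgeR, 24 had an unadjusted p under 0.05, and 0.000232% of all pairs passed. Part of this difference from other regions went with the kind of chromatin. Of all pairs within 2.1 Mb whose bins both scored above 0, 15.3% fell (median -0.25), and of those both above 1, 21.9% fell (median -0.31). At 0.1 to 0.5 Mb these shares were 25.97% and 39.4%. The window's shares there ran from 5 of 21 pairs at 0.1 Mb to 10 of 19 at 0.3 Mb, and so lay around those of such pairs. At 0.6 to 1.1 Mb 16.4% and 22.1% of such pairs fell. The window's shares there were higher, from 3 of 11 at 0.9 Mb to 5 of 9 at 1.1 Mb.

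The number of calls at Dntt depended on single libraries and on the scaling. Without either Erg KO library no bin pair passed anywhere in the genome. Most calls here were lost without Erg fl/fl replicate 2, the shallowest library and the 1 with the highest contacts here. That fit leaves the sex term to Erg KO replicate 2, so it rests on the 4 female libraries, with 1 from Erg KO. The lost calls therefore cannot be laid to Erg fl/fl replicate 2 alone. The same holds for each fit without it given below. The median change of the 223 pairs was -0.37 without CreT replicate 1 and -0.29 without Erg fl/fl replicate 2. With offsets that also equalise the coverage of each bin 17 fell (7.62%, against 0.801% of all pairs). Without sex in the model 30 fell (13.5%, against 3.09% of all pairs). DESeq2 called 2 of the 150 pairs to which it gave an adjusted p (1.33%, against 0.699% of all pairs). Of the 22 pairs named for both loci, 7 passed without Erg fl/fl replicate 2.

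**Figure D3:**
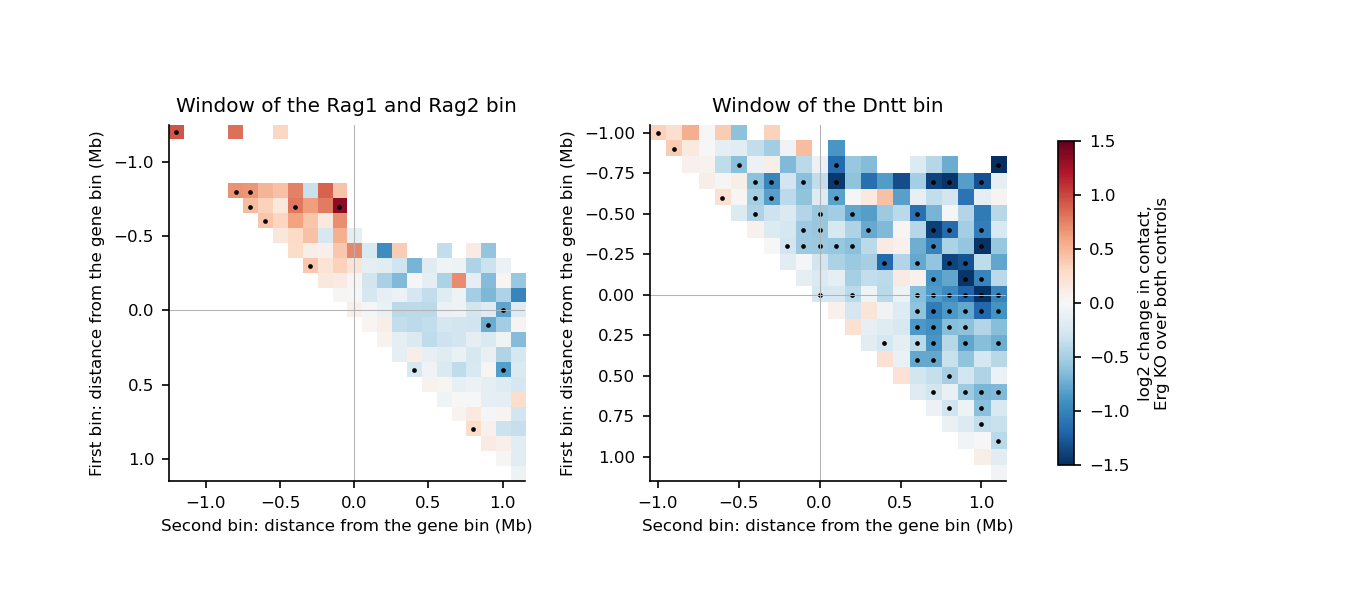
Fitted log2 change in contact in Erg KO over both controls for every tested bin pair of the Rag window (left) and the Dntt window (right); both axes give the distance of a bin from the gene bin in Mb, blue marks fewer and red more contacts, and untested pairs are blank. The Rag window is red in its gene-empty lower part, and the Dntt window is blue over most pairs of different bins.

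The falls at Dntt were spread along the window. Pairs that span the Dntt bin fell in 24 of 85 cases, those within the higher-coordinate side in 26 of 66, and those within the lower-coordinate side in 10 of 52. Of all tested pairs 6.46% fell. With both bins above 1, as on most of the higher side, 39.4% fell at 0.1 to 0.5 Mb and 22.1% at 0.6 to 1.1 Mb. All 3 pairs that rose were a bin of the lower side paired with itself. At a distance of 0.2 Mb the median change of the window's pairs was -0.27, against +0.09 over all tested pairs, and at 1.0 Mb it was -0.89, against -0.07. All tested pairs pool active and inactive chromatin. Those with both bins above 0 had medians of -0.22 at 0.1 to 0.5 Mb and -0.37 at 0.6 to 1.1 Mb. With both above 1 the medians were -0.32 and -0.46. The window's change at 0.2 Mb was thus near that of such pairs, and its change at 1.0 Mb was lower. The 5 pairs named next had the smallest p values among those that moved the same way against each control. The bin 0.7 Mb below Dntt and the bin of Cc2d2b joined in 68.0 and 49.7 normalised read pairs in the Erg KO, 95.0 and 88.9 in the CreT and 118 and 169 in the Erg fl/fl libraries. No Erg KO library reached a control, the fitted level was 0.507 of the controls, and the log2 change was -0.98 (SE 0.16, edgeR adjusted p = 1.39e-06). The other 4 lay on the higher side, and 3 of them had the bin of Slit1, a secreted axon guidance gene, as 1 end. Slit1 and the bin 0.1 Mb above Dntt joined in 38.5 and 64.7 normalised read pairs in the Erg KO, 85.8 and 84.2 in the CreT and 89.0 and 123 in the Erg fl/fl libraries (log2 change -1.04, SE 0.18, edgeR adjusted p = 3.25e-06). Slit1 with the bin of Tll2 and Tm9sf3 changed by -0.92 and with that of Pik3ap1, an adaptor that links the B-cell receptor to phosphoinositide 3-kinase, by -0.87. The groups overlapped in none of these pairs.

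The Dntt bin took part in these falls. All 20 of its tested pairs had a negative fitted change (14 had an unadjusted p under 0.05). Of all pairs 6.46% fell, and 15.3% of those within 2.1 Mb whose bins both scored above 0. Of the 20 pairs 11 fell and 0 rose. Against the CreT control alone 7 fell and against the Erg fl/fl control alone 8 fell, and between the controls 0 passed in edgeR (2 had an unadjusted p under 0.05). Under offsets for bin coverage 2 of the 20 fell, and without Erg fl/fl replicate 2 none did, with 9 at an unadjusted p under 0.05. With itself the Dntt bin had 265 and 313 normalised read pairs in the Erg KO, 333 and 323 in the CreT and 308 and 365 in the Erg fl/fl libraries. Erg KO replicate 2 lay inside the control range, and the change was -0.26 (SE 0.08, edgeR adjusted p = 0.0206).

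The lowest of the Dntt bin's 20 changes was with a partner 1.0 Mb above it, whose bin holds Pi4k2a, a phosphatidylinositol kinase gene, Ankrd2, Hoga1, Morn4 and 4933411K16Rik. This pair had 14.7 and 15.2 normalised read pairs in the Erg KO, 30.1 and 31.7 in the CreT and 28.9 and 59.2 in the Erg fl/fl libraries, from raw counts of 14 and 14, 38 and 40, and 28 and 44. Both Erg KO libraries lay at about the same low level, under all 4 controls, and Erg fl/fl replicate 2 stood well above the rest. The fitted level was 0.358 of the controls, a log2 change of -1.48 (SE 0.30, edgeR adjusted p = 0.000114). It passed against each control alone (edgeR adjusted p = 0.00460 against CreT and 0.000361 against Erg fl/fl). Without Erg fl/fl replicate 2 it was -1.02 (edgeR adjusted p = 0.119), and under offsets for bin coverage it was -1.21 (edgeR adjusted p = 0.00436).

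Other far partners on this side fell as well. With Slit1, 0.7 Mb above, Dntt had 44.4 and 44.0 normalised read pairs in the Erg KO, 62.9 and 60.2 in the CreT and 70.7 and 111 in the Erg fl/fl libraries (log2 change -0.84, SE 0.19, edgeR adjusted p = 0.000813). With the bin of Arhgap19 the change was -0.95 (SE 0.23, edgeR adjusted p = 0.00144), and with that of the glycolytic enzyme gene Pgam1 it was -1.20 (SE 0.26, edgeR adjusted p = 0.000427). In both of these the Erg KO libraries lay under every control. The furthest bin, with Avpi1, Marveld1 and Zfyve27, changed by -1.004 (SE 0.29, edgeR adjusted p = 0.0102), but Erg fl/fl replicate 1, at 18.6 normalised read pairs, lay below both Erg KO libraries, at 18.9 and 20.7. Without Erg fl/fl replicate 2 the changes were -0.55 with Slit1, -0.84 with Arhgap19, -0.82 with Pgam1 and -0.30 with the furthest bin, and none passed (edgeR adjusted p = 0.194, 0.100, 0.192 and 0.758). Over all pairs 0.6 to 1.1 Mb apart with both bins scoring above 0, the median change was -0.37 and 16.4% fell.

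The nearer neighbours of Dntt moved less. Blnk, which encodes the B-cell linker adaptor of pre-B-cell receptor signalling, lies in the next bin below. Dntt and Blnk joined in 225 and 238 normalised read pairs in the Erg KO, 250 and 251 in the CreT and 264 and 295 in the Erg fl/fl libraries. The groups did not overlap, and the change of -0.22 missed the threshold (SE 0.09, edgeR adjusted p = 0.0978). With Pik3ap1, 0.3 Mb above, Dntt had 69.6 and 62.8 normalised read pairs in the Erg KO, 67.7 and 54.8 in the CreT and 54.1 and 91.9 in the Erg fl/fl libraries, a difference of -0.06 within the spread of the controls (SE 0.18, edgeR adjusted p = 0.873). Below Dntt, pairs with Cc2d2b fell by 0.55 (SE 0.13, edgeR adjusted p = 0.000862) and with the bin of Tctn3 and Entpd1, the ectonucleotidase CD39, by 0.57 (SE 0.18, edgeR adjusted p = 0.0206). Above it, the pair with Tll2 and Tm9sf3 fell by 0.40 (SE 0.12, edgeR adjusted p = 0.0127).

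**Figure D4:**
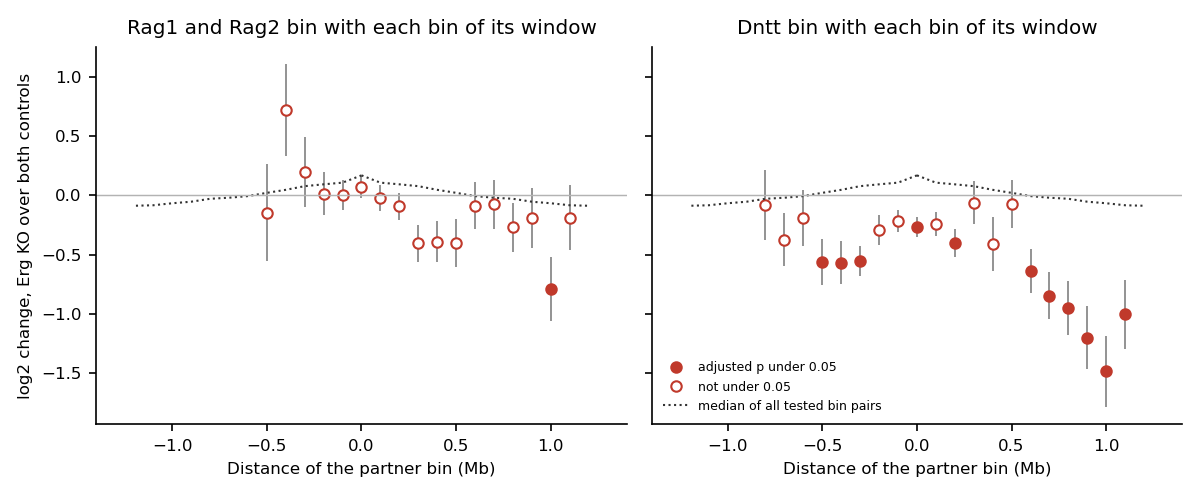
Fitted log2 change (Erg KO over both controls, with SE bars) of each tested pair of the Rag1 and Rag2 bin (left) and of the Dntt bin (right) against the distance of the partner in Mb; filled points passed (adjusted p under 0.05), open points did not, and the dotted line is the median of all tested pairs at that distance. Of 17 Rag pairs 1 passed, at 1.0 Mb, and of 20 Dntt pairs 11 passed, the lowest also at 1.0 Mb, with a change of -1.48.

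Observed over expected contacts are computed within each library. Dntt and the bin of Pi4k2a met at 0.73 and 0.77 of expectation in the Erg KO, 1.31 and 1.42 in the CreT and 1.28 and 1.96 in the Erg fl/fl libraries, so that a contact above expectation in all controls was below it in both Erg KO libraries. This restates the counts of a pair shown because its fitted change was the lowest, so no test is given. Dntt and Slit1 met at 1.54 and 1.48 in the Erg KO, 1.75 and 1.73 in the CreT and 1.95 and 2.28 in the Erg fl/fl libraries, above expectation in all 6. For Blnk the values were 1.00 and 1.09 in the Erg KO, 1.16 and 1.19 in the CreT and 1.21 and 1.32 in the Erg fl/fl libraries. Over the whole lower side of its window the Dntt bin had a log2 of 0.02 and 0.07 in the Erg KO, 0.19 and 0.16 in the CreT and 0.17 and 0.29 in the Erg fl/fl libraries (exact permutation test, p = 0.0667). Over the higher side it had -0.08 and 0.06 in the Erg KO, 0.29 and 0.13 in the CreT and 0.14 and 0.40 in the Erg fl/fl libraries (exact permutation test, p = 0.133). The groups did not overlap on either side.

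In its summed local contacts the Dntt bin had 58.1 and 58.1 normalised CPM in the Erg KO, 66.6 and 65.6 in the CreT and 64.9 and 84.9 in the Erg fl/fl libraries, from 1064 and 1015, 1583 and 1564, and 1183 and 1186 read pairs. The Erg KO libraries were alike and below all controls, at a fitted 0.802 of the control level (log2 change -0.32, SE 0.07, edgeR adjusted p = 0.000301). The fall passed against CreT alone (edgeR adjusted p = 0.00538) and against Erg fl/fl alone (edgeR adjusted p = 0.000397). It passed without each library in turn, at -0.17 without replicate 2 of Erg KO or of Erg fl/fl and -0.57 without Erg KO replicate 1. In the Dntt window 18 of 22 bins fell and 0 rose, where 33.3% of all bins fell. Each read pair counts for both of its bins, so bins of a window share read pairs and are not separate observations. With 1 library left out the median change of the window's bins was -0.54 to -0.24. Averaged over the 6 libraries the Dntt bin had a compartment score of 0.95. Of all bins scoring above 0, 60.3% fell, with a median of -0.21. Of all bins scoring above 1, as most of the higher side of this window did, 78.8% fell, with a median of -0.31. The change at Dntt was close to the median above 1 and lower than the median above 0. Of all bins 17.7% had a lower change.

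The insulation score of the Dntt bin was -0.40 and -0.19 in the Erg KO, -0.10 and -0.20 in the CreT and -0.10 and 0.04 in the Erg fl/fl libraries. It was a shallow local minimum in 6 of 6 libraries, and Erg KO replicate 2 overlapped CreT replicate 2. The score fell by 0.25 (SE 0.06, limma adjusted p = 0.0222), passing against Erg fl/fl alone (limma adjusted p = 0.0233) and not against CreT alone (limma adjusted p = 0.0915). It did not pass without Erg KO replicate 1 (-0.20, limma adjusted p = 0.114), without CreT replicate 1 (-0.22, limma adjusted p = 0.0972) or without sex in the model (-0.21, limma adjusted p = 0.104). In the window 8 of 22 bins fell and 0 rose, where 14.7% of all bins fell and 11.1% rose. The largest of these falls, by 0.37, lay 0.5 Mb above Dntt at the bin of Gm340 (SE 0.06, limma adjusted p = 0.00693). The number of falls moved with the library left out. The median change over the 22 bins was -0.17 with all libraries, -0.17 without CreT replicate 1 and -0.19 without Erg fl/fl replicate 1. Its extremes were -0.21, on dropping Erg KO replicate 1, and -0.11, on dropping either male library.

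In compartment score Dntt was in compartment A in all 6 libraries, at 0.49 and 0.92 in the Erg KO, 1.10 and 0.99 in the CreT and 1.05 and 1.13 in the Erg fl/fl libraries. The Erg KO libraries lay under every control, and replicate 1 lay far below replicate 2. The change of -0.43 missed the threshold (SE 0.09, limma adjusted p = 0.0713), although 0.875% of all bins had a lower one. The scores are smoothed over 3 bins, so neighbouring bins share data. At the bin of Blnk the score was 0.53 and 0.99 in the Erg KO, 1.19 and 1.02 in the CreT and 1.10 and 1.22 in the Erg fl/fl libraries, a change of -0.44 (SE 0.09, limma adjusted p = 0.0731). At Slit1 it was 1.49 and 1.41 in the Erg KO, 1.34 and 1.38 in the CreT and 1.39 and 1.32 in the Erg fl/fl libraries, a change of +0.11 (limma adjusted p = 0.130). In this score 0 of the window's 22 bins passed limma's test in either direction, 10 had an unadjusted p under 0.05, and 1.17% of all bins fell. Without Erg KO replicate 1 the change at Dntt was -0.21 (limma adjusted p = 0.110). It passed without replicate 2 of Erg KO or of Erg fl/fl (-0.55 each, limma adjusted p = 0.0135), without Erg fl/fl replicate 1 (-0.38, limma adjusted p = 0.0104) and with scores that were not smoothed (-0.42, limma adjusted p = 0.0329). The number of the window's bins that passed moved with the library left out. Over the 22 bins the median change was -0.05 with all libraries, -0.02 without Erg KO replicate 1 and -0.04 without Erg fl/fl replicate 1. It was -0.06 without replicate 2 of Erg KO or of Erg fl/fl.

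Contacts beyond the window varied more between libraries. The preference of the Dntt bin for compartment A over B beyond 2 Mb was 0.18 and 0.52 (log2) in the Erg KO, 0.87 and 0.79 in the CreT and 0.62 and 0.54 in the Erg fl/fl libraries. The groups did not overlap, Erg KO replicate 2 and Erg fl/fl replicate 2 being almost level (difference -0.35, exact permutation test, p = 0.133). Total coverage of the Dntt bin differed by -0.05 and overlapped (exact permutation test, p = 0.20). Its contacts with other chromosomes were 41.0% and 41.6% in the Erg KO, 31.9% and 33.5% in the CreT and 29.6% and 25.4% in the Erg fl/fl libraries, without overlap (exact permutation test, p = 0.0667) and moving with the whole libraries as at the Rag genes.

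**Figure D5:**
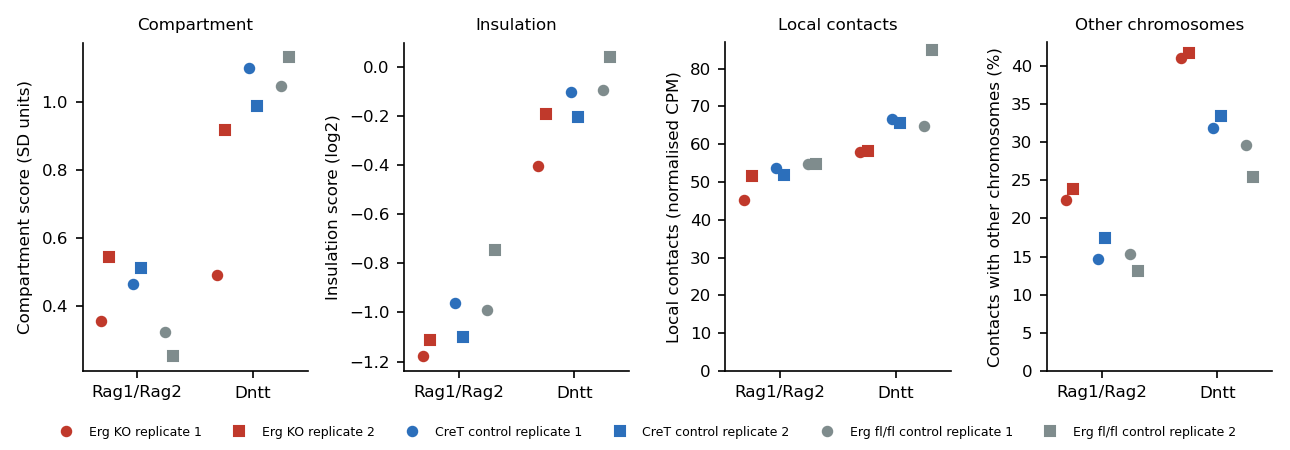
Compartment score, insulation score, local contacts (normalised CPM) and share of contacts with other chromosomes (percent) of the Rag1 and Rag2 bin and of the Dntt bin, with 1 point per library grouped as Erg KO, CreT control and Erg fl/fl control (circles, replicate 1; squares, replicate 2). In local contacts both Dntt points of Erg KO are at 58.1 and the control points between 64.9 and 84.9, whereas the Rag points of Erg KO, 45.2 and 51.6, come close to the lowest control.

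The other genes of the V(D)J recombination and end-joining pathway were read at the bins where they start, 17 genes in 16 bins with the members included. In local contacts 13 fell and 2 rose, with a median log2 change of -0.24 (all bins +0.01), where 33.3% of all bins fell and 34.4% rose. Of all bins scoring above 0, 60.3% fell, with a median of -0.21. The largest falls were at Paxx, an end-joining factor, by 0.78 (44.1 normalised CPM in Erg KO and 72.2 in the controls, edgeR adjusted p = 3.80e-08), and at Xrcc6, the Ku70 subunit that binds broken ends, by 0.56 (55.2 in Erg KO and 77.9 in the controls, edgeR adjusted p = 8.34e-07). Polm, a template-dependent relative of Dntt, fell by 0.48 and Parp1 by 0.41. The 2 that rose were Xrcc4, the partner of DNA ligase IV, by 0.44 (51.4 in Erg KO and 39.1 in the controls, edgeR adjusted p = 2.40e-05), and Hmgb2, a DNA-bending cofactor of the recombinase, by 0.16 (edgeR adjusted p = 0.0456). In insulation, where 14.7% of all bins fell, 6 fell and 0 rose (9 had an unadjusted p under 0.05), Dclre1c (Artemis, which opens hairpin ends), Paxx, Xrcc6, Rag1, Rag2 and Dntt, the Rag genes sharing 1 bin. In compartment score 0 fell in limma and 1 rose (4 had an unadjusted p under 0.05). Xrcc4 scored 0.52 and 0.56 in the Erg KO, 0.34 and 0.34 in the CreT and 0.07 and -0.10 in the Erg fl/fl libraries, and rose by 0.39 (SE 0.05, limma adjusted p = 0.0483), although neither control alone gave a call (limma adjusted p = 0.143 and 0.0662). Numbers of calls moved with the library left out, and most falls in insulation were lost without CreT replicate 1. With 1 library left out the median change was -0.32 to -0.23 in local contacts and -0.25 to -0.11 in insulation. In compartment score it was -0.004 to +0.053. No call in compartment score was left without either CreT library.

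Of 18 transcription factor genes that regulate the Rag genes, 12 fell and 1 rose in local contacts, with a median of -0.20, where 33.3% of all bins fell and 34.4% rose. This is near the 60.3% and the median of -0.21 of all bins scoring above 0. Tcf3, whose E2A proteins activate Rag transcription, fell most, by 0.67 (51.9 normalised CPM in Erg KO and 77.6 in the controls, edgeR adjusted p = 4.46e-08), and Ikzf1 (Ikaros) rose by 0.23 (edgeR adjusted p = 0.0328). Foxo1, the main activator of Rag1 and Rag2 in early B cells, fell by 0.19 (edgeR adjusted p = 0.00291) and Pax5, the B-lineage commitment factor, by 0.24 (edgeR adjusted p = 0.00188). Ebf1, which specifies the B lineage, changed by -0.06 (SE 0.06, edgeR adjusted p = 0.434). In insulation, where 14.7% of all bins fell and 11.1% rose, 6 fell and 0 rose (9 had an unadjusted p under 0.05): Pax5 by 0.51 (limma adjusted p = 0.00592), Myb by 0.39, Ikzf3 by 0.37, Spi1, Satb1 and Gfi1b. Foxo1, Ebf1 and Ikzf1 changed in insulation by 0.00, -0.01 and +0.02 and did not pass. In compartment score 0 of the 18 passed in limma and 6 had an unadjusted p under 0.05, where 1.17% of all bins fell and 1.31% rose. Changes were -0.09 at Foxo1, -0.12 at Pax5, -0.28 at Ebf1 and -0.23 at Ikzf1. Numbers of calls moved with the library left out, and the rise in local contacts was absent without Erg KO replicate 1 or either CreT library. With 1 library left out the median change was -0.24 to -0.19 in local contacts and -0.09 to -0.06 in insulation. In compartment score it was -0.11 to -0.04.

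Genes drawn up as neighbours of the loci were counted at the same bins, so genes of 1 bin share a value. Of 17 genes around Rag1 and Rag2, in 11 bins (Iftap was not matched), 7 fell and 2 rose in local contacts and 6 fell and 3 rose in insulation. Of 34 genes around Dntt, in 21 bins, 26 fell and 0 rose in local contacts, with a median of -0.32, and 9 fell and 0 rose in insulation. Of all bins 33.3% fell and 34.4% rose in local contacts, and 14.7% fell and 11.1% rose in insulation. In compartment score 0 of the 17 passed (3 with an unadjusted p under 0.05 in limma) and 1 of the 34 rose, where 1.17% of all bins fell and 1.31% rose. Some genes of these lists lie outside the windows. The Rag genes' neighbours lost all calls in insulation without CreT replicate 1 or without replicate 2 of Erg KO or of Erg fl/fl. Other numbers of calls moved too. With 1 library left out the median change of the Rag neighbours was -0.21 to -0.06 in local contacts and +0.02 to +0.21 in compartment score. That of the Dntt neighbours was -0.45 to -0.20 in local contacts, -0.17 to -0.11 in insulation and -0.07 to -0.02 in compartment score.

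The genes on other chromosomes whose compartment scores followed the Rag1 and Rag2 bin most closely over the 6 libraries were Abcb1a, a drug efflux pump gene, and Rundc3b, which share a bin of chromosome 5 (root mean square difference 0.0501), and Eya1, a transcriptional co-activator gene on chromosome 1 (0.0516), out of 18495 genes. For Dntt they were Rapgef5, a Rap exchange factor gene on chromosome 12 (0.0750), Olfr1507 with 3 further olfactory receptor genes of its bin on chromosome 14 (0.0764) and Chst15, a sulfotransferase gene on chromosome 7 (0.0875), out of 19581 genes. Rapgef5 was picked by its scores in these same libraries, so sharing the split between the Erg KO libraries follows from that choice. It scored 0.39 and 0.88 in the Erg KO, 1.11 and 1.04 in the CreT and 0.93 and 1.08 in the Erg fl/fl libraries.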

How the data were processed

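In situ Hi-C libraries of 6 samples in 3 genotype groups were analysed. The authors deposited raw read-pair counts per pair of about 100 kb bins (mm10). Per the study's methods, reads were aligned with bowtie2 through diffHic, duplicates were marked, and dangling ends and overlong fragments were removed. The files hold fewer pairs than the methods state, and their shallowest library gives the widest error. Autosomal bins with 0.3 to 3 times the median coverage were kept. Bin pairs with a summed count of at least 10 and at least 5 times the abundance of contacts between chromosomes were tested with edgeR 4.0.16 (quasi-likelihood, group and sex, loess offsets), which left a smallest summed count of 46. Normalised read pairs are counts divided by those offsets. Compartment scores (first components of correlated, smoothed observed over expected contacts, signed by gene density) and insulation scores (squares of 5 by 5 bins of balanced contacts) were tested with limma 3.58.1, and local contacts with edgeR after TMM scaling. P-values were adjusted by the Benjamini-Hochberg method over all bins or pairs, with a threshold of 0.05, and measure the spread between these libraries only. Single values were compared by exact permutation.

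Named pairs were the up to 5 with the smallest p in each window and those of the gene bins with listed genes. Named list genes were those whose bins passed, with Foxo1, Ebf1, Pax5 and Ikzf1 in any case, and likeness was the smallest root mean square difference in compartment score. Members, lists and rules were chosen with earlier results of these data known. The labelled sexes were checked by the share of read ends on chromosome X. The tests were checked on simulated data with known changes. Of 50 simulated bin pairs each, edgeR recovered 6 at 0.5 times the level, 27 at 0.25, 14 at 2 and 50 at 4 times. With so few changed among 431340 pairs, the adjustment was stricter there than in the real data. For shifts of 0.5 or 1 in either direction the tests of scores and local contacts recovered 47 to 50 of 50. Alternatives were each library left out, no sex term, a replicate block, TMM or bin coverage offsets, other filters, DESeq2, other score settings and raw counts. The deposited bin coordinates were used as given; where the Rag1Cre transgene sits is not given in the sources used here. The values of 1 named pair are not reported here.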

Additional observations from a re-analysis of the deposited data

Results flagged for a closer look

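Among the 4 control libraries, Erg fl/fl replicate 2 stood apart in 2 of the 48 values examined, where chance alone marks about 1 set in 20. In local contacts of the Dntt bin it had 84.9 normalised CPM, while the other controls lay between 64.9 and 66.6. In the contact of Slit1 with the bin 0.1 Mb above Dntt it had 123 normalised read pairs, while the other controls lay between 84.2 and 89.0. It is the shallowest library and 1 of 2 from males, and the controls are of 2 genotypes. The part of depth, sex or genotype in these values was not tested.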

How the results depend on the processing

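Numbers of called bin pairs moved most. Where the main analysis gave 4 falls and 9 rises in the Rag window, 71 falls and 3 rises in the Dntt window, and 1 and 11 falls for the pairs of the Rag and Dntt bins, leaving out 1 library gave 0 to 4, 0 to 10, 0 to 74, 0 to 2, 0 to 1 and 0 to 11 in that order. Without sex the counts were 1, 3, 30, 0, 0 and 5, with a replicate block in place of sex 1, 3, 31, 0, 0 and 5, under offsets for bin coverage 0, 5, 17, 6, 0 and 2, and with DESeq2 0, 1, 2, 0, 0 and 1. TMM scaling gave 5 rises in the Dntt window and 6 falls for the Dntt bin, and the other count filters 0 falls for the Rag bin. Over all pairs the main analysis called 55416, the block 27025 and no sex term 26126.

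Replicate numbers were not taken to pair the libraries. Over bins, deviations of same-numbered libraries of Erg KO and CreT, Erg KO and Erg fl/fl, and the 2 controls correlated at -0.03, 0.13 and -0.35 in compartment score, 0.01, 0.13 and -0.45 in insulation and -0.17, 0.54 and -0.39 in local contacts. With the replicate block the insulation changes were -0.20 at the Rag genes (adjusted p = 0.139, limma) and -0.21 at Dntt (adjusted p = 0.107, limma), and the Rag genes' local contacts -0.15 (adjusted p = 0.117, edgeR). Without sex they were -0.20, -0.21 and -0.15, and DESeq2 gave -0.18 for the last (adjusted p = 0.0523). The Dntt compartment change was -0.42 without smoothing and -0.42 when scaled by the median absolute value (limma adjusted p = 0.0453).

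Leaving out 1 library gave -0.051 to 0.21 (Rag) and -0.55 to -0.21 (Dntt) in compartment score, -0.35 to -0.17 and -0.28 to -0.20 in insulation, -0.25 to -0.062 for the Rag genes' local contacts, and -0.076 to 0.034 for their contact with the lower side. That contact was 0.11 on raw counts, their preference for compartment A -0.10 on raw counts, and their coverage -0.044 from other chromosomes alone. Rag pairs at 0.8 and 0.7 Mb turned to -0.10, -0.11 and -0.28 under offsets for bin coverage. The cause of these shifts was not tested. The local contacts of Dntt passed under every alternative run. Counts and median changes of bins and list genes without each library were added after seeing the data. Depth limits single pairs, some of which rest on as few as 14 read pairs in a library.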
